A study of Mus musculus with 6 samples.

Results

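Esr1-high hernia-associated fibroblasts (Esr1hi HAFs) were examined in 3 wild-type (WT) and 3 Aromhum mice, in the muscle of the lower abdomen (lower abdominal muscle, LAM). The cells were chosen by the place of their columns in the deposited count table. In file order the columns form 180 runs of 1 mouse each, which pass 30 times through the 6 mice, and the 10th pass (runs 55 to 60), here column group 10, holds 4766 of 63647 barcodes. A barcode was kept as a cell if it had at least 1000 unique molecular identifiers (UMIs, 1 for each captured RNA molecule) and at most 10% of them in the 13 mitochondrial genes. This left 4638 cells in column group 10, which are 8.68% of the 53443 kept cells of the series. The sources used here do not say how the columns were ordered. Because column group 10 may be a cluster drawn on the same genes, its differences from other column groups are given as a description without a test.

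All 6 mice were males of the FVB/N strain, 9 to 10 weeks old. The Aromhum mice carry the human aromatase gene CYP19A1 under its own promoters, so the transgene is limited neither to muscle nor to fibroblasts, and the labels give them scrotal hernia; their WT controls lack the transgene. No other allele or treatment is named in the labels. Whole LAM tissue was dissociated, and the RNA of single cells was counted with droplet sequencing. According to the methods, a WT and an Aromhum littermate were processed together on each of 3 dates, but the labels do not tie the replicate numbers to these dates.

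Aromatase converts androgens to estrogens. Estrogen receptor alpha, the product of Esr1, is a nuclear receptor that binds DNA at estrogen response elements, or through other factors such as AP-1, and changes the transcription of its target genes, of which the progesterone receptor gene Pgr is the standard example. Fibroblasts of muscle make the collagen-rich matrix around the fibers, and excess matrix with loss of fibers is fibrosis, which weakens the muscle wall through which an inguinal hernia passes.

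Column group 10 carried the marker genes by which it was named. Of its 8 markers, Pnoc, Ren1, Nppc, Moxd1, Chrdl2 and Esr1 had their highest level of all 30 column groups here, while Erfe ranked 2 and Ramp3 ranked 4. Levels are given as CPM, UMI counts scaled to the same total over the cells of column group 10 in each mouse and not to gene length, so genes are not ranked against each other. Esr1 itself was at 225 ± 43.5 CPM (SD, n = 6 mice), against 48.8 CPM in the next column group. Pnoc, which encodes the neuropeptide precursor prepronociceptin, was at 10514 ± 3123 CPM against 1282 CPM in the next group. Ren1, which encodes renin, reached 17297 ± 11588 CPM against 2753 CPM, with a near-identical gene, Ren2, in some strains whose reads could be split from it or added to it. For Esr1, Pnoc and Ren1 the next group was column group 27, which has only 8 to 43 kept cells per mouse. Its mean leaves out WT replicate 2, since mice with under 10 kept cells of a group were not averaged. For Erfe and Ramp3, column groups 11 and 14 were above column group 10, with 426 and 742 CPM against 288 ± 294 and 247 ± 288 CPM. The wide spread of both over the 6 mice lies between genotypes.

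**Figure D1:**
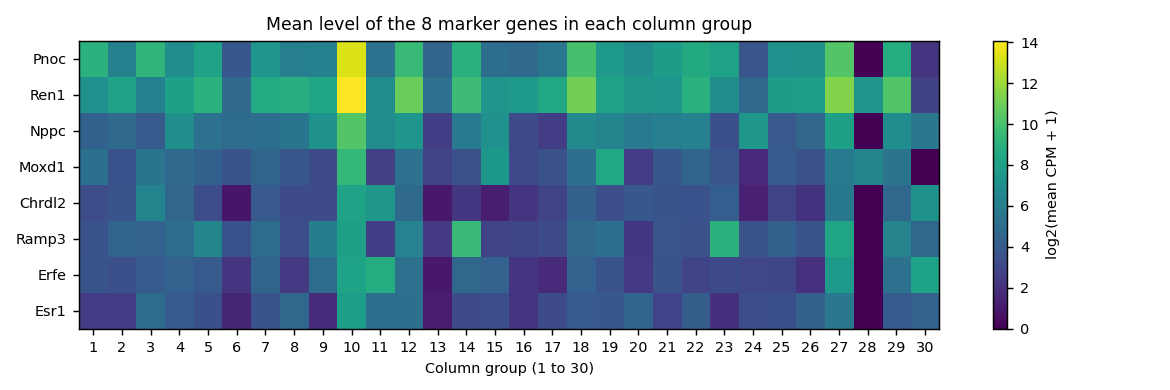
Level of the 8 marker genes in the 30 column groups, drawn as a color scale of log2(mean CPM over mice + 1), with genes in rows and column groups in columns. Column group 10 is highest for 6 of the 8 genes, with Esr1 at 225 CPM against 48.8 CPM in the next group. That next group, column group 27, has 8 to 43 kept cells per mouse.

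Free RNA from broken cells adds UMIs to every droplet, so the share of cells with a UMI was compared with endothelial cells after each cell was thinned to 1000 UMIs. Esr1 was then seen in 19.0% of the cells of column group 10 and in 0.276% of the 9419 cells of column group 2, whose leading genes are endothelial. Without thinning, the shares were 82.8% and 1.57%, at median depths of 15266 and 5229 UMIs. Pnoc was seen in 60.3% against 1.72% and Ren1 in 75.3% against 3.22% of the thinned cells. Ramp3 was seen in 3.00%, 0.833% and 0.595% of the thinned cells of the WT mice and 26.5%, 30.2% and 15.7% of those of the Aromhum mice. The endothelial share, pooled over all mice, was 2.22%. WT replicates 2 and 3 were below it, so their Ramp3 is not shown to be above background. Without thinning, 10.4% of the endothelial cells had a Ramp3 UMI, against 2.18% for Erfe and 2.42% for Nppc. Whether endothelial cells themselves express Ramp3 was not tested. The other 7 markers were above the endothelial share in every mouse, with Erfe at 3.65%, 0.833% and 0.595% in WT against 0.329% nearest to it. The Erfe shares of WT replicates 2 and 3 equal those of Ramp3 and rest on only 240 and 168 cells. Erfe is thus not shown to be above background in these mice either.

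The 8 general fibroblast markers, among them Pdgfra, Col1a1 and Dcn, summed to 43102 to 52397 CPM in WT and 36581 to 39095 CPM in Aromhum mice. The genes of this list did not all go the way of the sum. By the test below, Pdgfra and Col1a2 rose, Dcn fell and Col1a1 did not pass. Markers of other cell types were present at low levels, and none of them was at 0. The 8 endothelial markers summed to 492 to 1030 CPM in WT and 160 to 283 CPM in Aromhum mice, against 35019 CPM in the column group where they were highest. The 8 macrophage markers summed to 8.77 to 15.5 CPM in WT and 20.8 to 57.4 CPM in Aromhum mice, against 19063 CPM at their highest. The 8 markers of smooth muscle cells and pericytes summed to 104.5 to 138 CPM in WT and 64.6 to 76.1 CPM in Aromhum mice, and the 8 mesothelial markers to 1.75 to 7.02 and 7.46 to 30.9 CPM. The genotypes did not overlap in any of these 5 lists. The fibroblast, endothelial and smooth muscle sums were lower and the macrophage and mesothelial sums higher in Aromhum mice. Of the 13 marker lists, the tenocyte list also separated the genotypes, and the others overlapped. For single genes, all Aromhum mice lay above all WT mice in 20.0% of those tested and below them in 16.1%.

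Esr1hi HAFs made up a larger share of the kept cells in Aromhum than in WT mice. In WT replicates 1, 2 and 3 there were 466 of 8523, 240 of 7386 and 168 of 6765 kept cells. These are shares of 5.47% (exact binomial 95% interval 4.99 to 5.97), 3.25% (2.86 to 3.68) and 2.48% (2.13 to 2.88). In Aromhum replicates 1, 2 and 3 there were 1337 of 10688, 1713 of 12192 and 714 of 7889, which are 12.5% (11.9 to 13.1), 14.1% (13.4 to 14.7) and 9.05% (8.43 to 9.71). The genotypes did not overlap, with means of 3.73% ± 1.55 and 11.9% ± 2.56 (SD, n = 3 mice each). The shares were not tested, since the column groups may rest on genes that differ between genotypes, and a share of droplets also depends on which cells survive dissociation. The intervals cover counting error only. Under the limits of the study (200 to 2500 genes, at least 1000 UMIs, at most 5% mitochondrial UMIs, without its further step on outlying cells) 320 cells were left, and the shares were 2.23%, 0.914% and 0.618% in WT and 2.10%, 1.93% and 1.29% in Aromhum mice. They then overlapped, with means of 1.25% and 1.77%. The limit of 2500 genes lay below the median of the kept members in every mouse. These medians were 2859.5, 3115 and 3190 genes in WT and 3828, 3502 and 4211 in Aromhum mice. Only 14 and 15 cells were left in WT replicates 2 and 3.

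**Figure D2:**
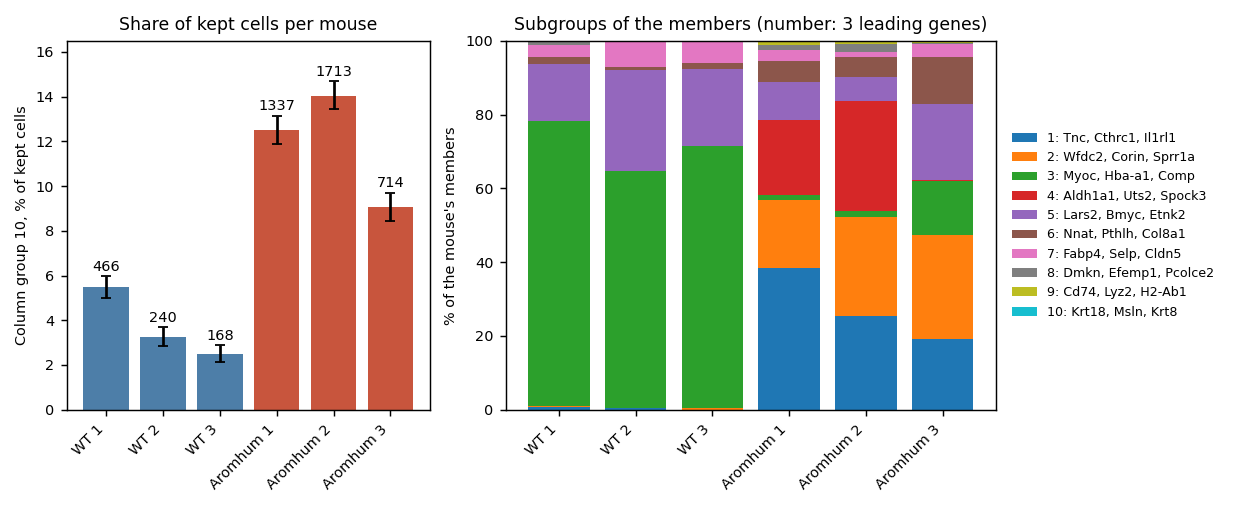
Left, bars for the share of kept cells in column group 10 in each mouse with exact binomial 95% intervals and the number of cells above. Right, stacked bars for the share of these cells in each of the 10 subgroups. The Aromhum mice have 9.05 to 14.1% and the WT mice 2.48 to 5.47%, and subgroup 3 holds 64.2 to 77.0% of the WT cells.

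The cells of Aromhum mice were also deeper. Their median was 17543, 14504 and 19925 UMIs per cell in replicates 1 to 3, against 10371, 11560 and 12310 in WT. Summed over cells, the WT mice gave 5730192, 2975355 and 2279445 UMIs and the Aromhum mice 25723870, 27349546 and 15654532, so the WT sums are the less precise. Over all kept cells a mouse had 61924262 to 64918785 UMIs in WT and 90324996 to 108626561 UMIs in Aromhum. The median mitochondrial share of the Esr1hi HAFs was 3.87%, 5.08% and 4.51% in WT and 3.35%, 3.79% and 3.42% in Aromhum mice. Of the 4635 different barcode sequences in column group 10, 3 occurred in more than 1 mouse.

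The Esr1hi HAFs were not uniform, and the WT and Aromhum cells lay mostly in different subgroups. The 4638 cells were split into 10 subgroups with Leiden clustering, and these are described by number and leading genes. Subgroup 3 (784 cells), led by Myoc, Hba-a1, Comp, Igfbp2, Zfp36, Fmod, Gas1 and Socs3, held 77.0%, 64.2% and 70.8% of the cells of the WT replicates but 1.346%, 1.75% and 14.6% of those of the Aromhum replicates. Hba-a1 is a hemoglobin gene of red blood cells. Subgroup 1 (1089 cells) was led by the matrix and inflammatory genes Tnc, Cthrc1, Il1rl1, Col5a3 and Ccl8, subgroup 2 (910 cells) by Wfdc2, Corin, Sprr1a, Rbp4, Aqp5 and Nppc, and subgroup 4 (783 cells) by Aldh1a1, Uts2, Wisp2, Adm and Saa3. The sum of the 8 naming markers was lowest in subgroup 1, at 15025 CPM, against 19445 to 70896 CPM in the other 9 subgroups. Ren1 made up 12687 CPM of this sum, and single markers did not all follow it. In subgroup 3, Erfe was at 35.1 CPM and Ramp3 at 22.0 CPM, against 180.1 and 355 CPM in subgroup 1. In subgroup 6, Nppc was at 221 CPM, also below its level in subgroup 1. Pnoc was at 814 CPM in subgroup 1 and 14835 CPM in the rest of column group 10, Nppc at 542 and 2527 CPM, Moxd1 at 180.2 and 697 CPM, Chrdl2 at 124 and 499.8 CPM and Erfe at 180.1 and 569.7 CPM. Pnoc was thus below its level in the next column group (1282 CPM), while Esr1, at 142 CPM against 239.6 CPM in the rest, was above its own (48.8 CPM). The 8 markers of Mmp3-high fibroblasts, among them Cthrc1 and C4b of the leading genes, summed to 2138 CPM in subgroup 1. In subgroups 8 and 4 they summed to 2428 and 1324 CPM. Of the column groups they were highest in column group 24, at 4503 CPM. That group held 61, 58 and 92 WT and 51, 52 and 83 Aromhum cells. Whether it is the Mmp3-high cluster of the study was not tested. Subgroup 1 held 38.3%, 25.5% and 19.05% of the Aromhum cells and 4 WT cells. The name Esr1hi HAF is used below for all cells of column group 10 by its rule. The total counts and those of some gene lists are also given without subgroup 1. Subgroups 1, 2 and 4 together held 77.3%, 81.8% and 47.6% of the Aromhum cells and 1.29%, 0.417% and 0.595% of the WT cells. Subgroup 4 had 2 cells in Aromhum replicate 3, which stands nearer to the WT mice in several of the measures below.

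Of the other subgroups, subgroup 6 (273 cells), led by Nnat, Pthlh and Crabp2, held 1.93%, 0.833% and 1.79% of the WT and 5.76%, 5.31% and 12.7% of the Aromhum cells. Subgroup 5 (572 cells) was led by the mitochondrial leucyl-tRNA synthetase gene Lars2 and had a median mitochondrial share of 5.24%. Subgroups 7 to 10 (227 cells) were led by endothelial, Dmkn, macrophage or mesothelial genes, and 20.8 to 66.7% of their cells were marked as doublets (droplets with a pair of cells) by Scrublet. They held 4.34 to 7.08% of the cells of each mouse, with the genotypes overlapping. Scrublet marked no barcode in WT replicates 2 and 3, which does not show that they hold no doublets. Leaving out doublets thus removed no cells from these mice. The genes that lead these subgroups differ between genotypes, so their sizes are a description. In the sums per mouse that follow, the mix of subgroups and the levels within a subgroup change together, and levels within subgroups were not tested.

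To ask which genes differed between the genotypes within Esr1hi HAFs, the UMIs of the kept cells were summed per mouse, so that the mouse was the replicate, and compared by the quasi-likelihood test of edgeR, with p-values adjusted after Benjamini and Hochberg (threshold 0.05). Of 12153 genes tested, 745 rose in Aromhum (6.13%) and 950 fell (7.82%). The median log2 fold change of all tested genes was -0.01. A change of at least 4-fold was found for 173 of the genes that rose and 185 of those that fell. All 3 Aromhum mice lay above all 3 WT mice for 743 of the 745 and below them for 944 of the 950. Such separation held for 20.0% (above) and 16.1% (below) of all tested genes. The counts depended on single mice: without WT replicate 1, 414 rose and 508 fell; without WT replicate 2, 155 and 243; and without WT replicate 3, 130 and 198. Leaving out Aromhum replicate 1 gave 96 and 125, and leaving out Aromhum replicate 2 gave 236 and 273. Without Aromhum replicate 3 the counts were 1237 and 1387. Without the cells of subgroup 1, which was drawn on the same genes and left out only after the data were seen, 469 genes rose and 642 fell, of which 452 and 612 were among those called with all cells. An adjusted p in parentheses after a left-out mouse is that without this mouse, and a range is that of the adjusted p over all alternative settings. On the first principal component, with 62.8% of the variance, Aromhum replicate 3 was at 20.6, the other Aromhum mice at 56.9 and 59.2, and the WT mice between -59.2 and -26.5. Of the 125 genes chosen for description, 93 changed, and 37 of these passed the threshold whichever mouse was left out. The limits of the study leave 320 cells, with 14 and 15 of them in WT replicates 2 and 3. Under these limits 24 of the 37 could be tested and 7 of these missed the threshold, namely Tgm2, Bmp4, Tgfb3, Htra1, Dkk3, Cd55 and Bmp1. In what follows, values are listed in the order of replicates 1, 2 and 3, and a gene said to have missed the threshold without a mouse had passed it with all 6. Without subgroup 1, 12 of the 93 missed the threshold, namely Col5a1, Col5a2, Col5a3, Col1a2, Col11a1, Comp, Lif, Ramp2, Ccl11, Il1rl1, Myh9 and Flna. Other called list members also missed it there, among them Rara, Plod2, Pcolce, Tnc, Fbn1 and Thbs4 of lists for which no such count is given.

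The genotype labels held for the transgene. No UMI of human CYP19A1 was found in the Esr1hi HAFs of the 3 WT mice, and 519 were found in those of the Aromhum mice, at 7.31, 8.19 and 6.84 CPM. With 3 counts over the WT group as the floor, this is at least 27.7-fold higher (adjusted p = 0.00360). Mouse Cyp19a1 is not analysed here.

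Among the markers, Nppc, Ramp3 and Erfe rose in Aromhum Esr1hi HAFs, and Esr1 did not pass the test. The study drew its markers of Esr1hi HAFs from these same samples, and most of the cells used here are from Aromhum mice. The rises are thus a description and no independent evidence of a direction. The comparison of Esr1 is limited too, since these cells may be a cluster drawn on Esr1 itself. Esr1 (chr10:4611593-5005614, plus strand, GRCm38) was at 224, 236 and 210.1 CPM in WT and 175, 200.003 and 303 CPM in Aromhum mice. The Aromhum values span the WT values (log2 fold change -0.01, SE 0.19, adjusted p = 0.977). Erfe, which encodes erythroferrone, a hormone of iron metabolism, was at 26.9, 25.2 and 19.7 CPM in WT and 621, 453 and 579.9 CPM in Aromhum mice. This is 22.5-fold higher with no overlap (log2 fold change 4.49, SE 0.20, adjusted p = 0.000215). Ramp3, an accessory protein that sets the ligand preference of the calcitonin receptor-like receptor, was at 23.9, 2.02 and 4.39 CPM in WT and 597, 596 and 259.9 CPM in Aromhum mice. It was 41.7-fold higher (log2 fold change 5.38, SE 0.78, adjusted p = 0.00861), and Aromhum replicate 3 was the lowest of its group. The fold changes of Erfe and of Ramp3 are both ratios to a WT level not shown to be above background in WT replicates 2 and 3. Nppc, which encodes C-type natriuretic peptide, was at 386, 315 and 475 CPM in WT and 2725, 2362 and 1483 CPM in Aromhum mice, again without overlap (5.56-fold higher, log2 fold change 2.48, SE 0.28, adjusted p = 0.00438). All 3 genes passed the threshold whichever mouse was left out.

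The remaining markers did not pass the test. Ren1 was at 26813, 1554 and 5393 CPM in WT and 28716, 16272 and 25035 CPM in Aromhum mice, so that WT replicate 1 lay among the Aromhum mice (log2 fold change 1.006, SE 0.85, adjusted p = 0.454). Without WT replicate 1 its adjusted p was 0.0440 (range 0.0440 to 0.706 over all alternatives), and that of Chrdl2 was 0.0121 (range 0.0121 to 0.504 over all alternatives) against 0.129 with all mice. Chrdl2, a secreted binder of bone morphogenetic proteins, was at 279.9, 39.7 and 54.0 CPM in WT and 516, 459 and 302 CPM in Aromhum mice. WT replicate 1 stood apart from the other WT mice in both genes. Pnoc (log2 fold change 0.43, SE 0.27, adjusted p = 0.312) and Moxd1, a monooxygenase-like gene (log2 fold change -0.35, SE 0.32, adjusted p = 0.495), overlapped between genotypes.

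The start regions of the 3 markers that rose are shown because estrogen receptor can act there. Each run of 300 bases covers 250 bases before to 50 after the transcription start, from RefSeq on GRCm38.p6, written 5′ to 3′ on the strand of the gene. Capitals mark a match to the estrogen response element (the arms GGTCA and TGACC with any 3 bases between them) with up to 2 mismatches in the arms, or to a single arm, searched on both strands. Nppc lies at chr1:86670524-86670823, minus strand, Ramp3 at chr11:6658283-6658582, plus strand, and Erfe at chr1:91366180-91366479, plus strand.
Nppc: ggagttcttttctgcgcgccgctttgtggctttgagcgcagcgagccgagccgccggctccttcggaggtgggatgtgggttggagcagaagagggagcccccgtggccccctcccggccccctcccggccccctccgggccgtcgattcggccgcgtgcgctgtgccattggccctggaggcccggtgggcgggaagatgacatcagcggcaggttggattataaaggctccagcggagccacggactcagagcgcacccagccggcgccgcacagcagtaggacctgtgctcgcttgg
Ramp3: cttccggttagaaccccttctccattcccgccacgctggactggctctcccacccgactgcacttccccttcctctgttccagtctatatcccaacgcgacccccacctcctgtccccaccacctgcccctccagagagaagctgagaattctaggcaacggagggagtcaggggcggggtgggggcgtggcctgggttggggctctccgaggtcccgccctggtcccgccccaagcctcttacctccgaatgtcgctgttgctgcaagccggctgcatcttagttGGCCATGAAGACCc
Erfe: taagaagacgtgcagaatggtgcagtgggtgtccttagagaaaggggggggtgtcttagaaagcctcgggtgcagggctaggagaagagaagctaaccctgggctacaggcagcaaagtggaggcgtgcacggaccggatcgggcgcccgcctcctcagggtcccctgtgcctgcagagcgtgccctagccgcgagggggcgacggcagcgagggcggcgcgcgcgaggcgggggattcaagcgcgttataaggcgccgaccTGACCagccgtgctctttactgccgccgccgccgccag
The Ramp3 region holds an element with 2 mismatches that begins 36 bases after the start, the Erfe region a single arm 12 bases after the start, and the Nppc region neither. An element with up to 2 mismatches was found for 12.6% of the 27025 genes with such a region and for 12.01% of the 9381 tested genes that had one. The share was 11.5% among the 538 genes that rose and 12.2% among the 694 that fell. With up to 1 mismatch the shares were 0.995%, 0.821%, 1.30% and 0.576% in the same order. A single arm was present for 43.6%, 41.4%, 41.8% and 40.5%, and the AP-1 motif TGANTCA for 8.97%, 6.23%, 8.36% and 7.35%. A match is a stretch of letters and not a measured binding site, and elements farther from the start were not searched.

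Among 15 tested textbook targets of the estrogen receptor, 3 rose and 2 fell (20.0% and 13.3%, against 6.13% and 7.82% of all tested genes), with a median log2 fold change of 0.36. Pgr (chr9:8899833-8968611, plus strand) was at 17.8, 4.37 and 8.34 CPM in WT and 134, 208 and 109 CPM in Aromhum mice. All 3 Aromhum mice were above all WT mice (13.5-fold higher, log2 fold change 3.76, SE 0.47, adjusted p = 0.00554), and the gene passed whichever mouse was left out. After thinning to 1000 UMIs, Pgr was seen in 1.29%, 0.417% and 1.19% of the WT and 13.2%, 17.3% and 10.1% of the Aromhum cells, against 0.0637% in the endothelial column group. Greb1, a coactivator of the receptor, was at 66.3, 100.2 and 124 CPM in WT and 132, 206 and 160.2 CPM in Aromhum mice without overlap but did not pass (log2 fold change 0.77, SE 0.24, adjusted p = 0.0676). It passed with DESeq2, with an adjusted p of 0.0228 (range 0.0224 to 0.339 over all alternatives). Igfbp4 and the cytokine gene Lif also rose (log2 fold changes 1.46 and 1.14, adjusted p = 0.0139 and 0.0204), while Bcl2 and the retinoic acid receptor gene Rara fell (Bcl2 -1.37, adjusted p = 0.0155). Igfbp4 missed the threshold without WT replicate 2 (0.0552), WT replicate 3 (0.0667) or Aromhum replicate 1 (0.0587), with a range of 5.36e-07 to 0.0667 over all alternatives. Lif missed it without WT replicate 2 (0.0727), WT replicate 3 (0.0757), Aromhum replicate 1 (0.0782) or Aromhum replicate 2 (0.0577), with a range of 0.000385 to 0.356 over all alternatives. Bcl2 missed it without WT replicate 2 (0.0631), WT replicate 3 (0.0635), Aromhum replicate 1 (0.0730) or Aromhum replicate 2 (0.0522), with a range of 3.71e-05 to 0.0821 over all alternatives, and Rara without WT replicate 1 (0.0990), WT replicate 3 (0.102), Aromhum replicate 1 (0.128) or Aromhum replicate 2 (0.0963), with a range of 0.00642 to 0.900 over all alternatives. Leaving out a mouse gave 1 rising gene without WT replicate 2, WT replicate 3 or Aromhum replicate 1, 2 without Aromhum replicate 2 and 4 without Aromhum replicate 3. The falling genes were 1 without WT replicate 1 and 0 without WT replicate 3, Aromhum replicate 1 or Aromhum replicate 2.

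Of the 16 genes that the study names for Esr1hi HAFs, which were chosen on these samples and are no independent evidence of a direction, 7 rose and none fell (43.8% and 0%, against 6.13% and 7.82% of all tested genes; median log2 fold change 1.83). The 7 were Nppc, Pgr, Timp1, Pdgfra, Inhba, Wisp2 and Emb. The study reports Pgr, Wisp2, Inhba, Cilp, Nppc, Timp1, Ptx3, Aqp5 and Pdgfra as higher in Aromhum than in WT Esr1hi HAFs. It names the other genes of the list, Mfap4 and Emb among them, for these cells and not for that difference. Timp1, an inhibitor of matrix metalloproteinases, was at 136, 121 and 61.4 CPM in WT and 1672, 1074 and 422 CPM in Aromhum mice (9.91-fold higher, log2 fold change 3.31, SE 0.54, adjusted p = 0.0117). Pdgfra, the receptor that marks fibroblasts and fibro-adipogenic progenitors, was at 129, 112 and 82.0 CPM in WT and 451, 458 and 231 CPM in Aromhum mice (3.49-fold higher, log2 fold change 1.80, SE 0.31, adjusted p = 0.0138). Both separated the genotypes, with Aromhum replicate 3 the lowest of its group, and both were short of the threshold without 1 of several mice. Timp1 missed it without WT replicate 2 (0.0555) or WT replicate 3 (0.0555), with a range of 8.01e-11 to 0.0555 over all alternatives, and Pdgfra without WT replicate 2 (0.0599), WT replicate 3 (0.0604) or Aromhum replicate 1 (0.0604), with a range of 3.28e-07 to 0.0604 over all alternatives. Wisp2, of the CCN family of matrix-associated proteins, was at 54.8, 34.6 and 23.7 CPM in WT and 399, 558 and 73.7 CPM in Aromhum mice (log2 fold change 3.15, SE 0.70, adjusted p = 0.0254). Its call was lost without WT replicate 1 (0.0603), WT replicate 2 (0.0935), WT replicate 3 (0.102), Aromhum replicate 1 (0.0879) or Aromhum replicate 2 (0.0661), with a range of 0.000445 to 0.124 over all alternatives. Emb, which encodes the cell adhesion protein embigin, missed the threshold without WT replicate 2 (0.0975), WT replicate 3 (0.0886), Aromhum replicate 1 (0.104) or Aromhum replicate 2 (0.0737), with a range of 0.00213 to 0.134 over all alternatives. Ptx3, Aqp5, Cilp and Spon2 were each higher on average in Aromhum mice and did not pass (adjusted p = 0.205, 0.177, 0.0784 and 0.0557). With DESeq2 the adjusted p of Cilp was 0.0173 (range 0.0173 to 0.194 over all alternatives) and that of Spon2 0.00736 (range 0.00736 to 0.442 over all alternatives), and without WT replicate 2 that of Spon2 was 0.0412. Mfap4 was at nearly the same level in all mice (2246, 2222 and 2384 CPM in WT and 2177, 2087 and 2691 CPM in Aromhum mice). The list had 6 rising genes without WT replicate 1, 3 without WT replicate 2, 2 without WT replicate 3, 3 without Aromhum replicate 1, 4 without Aromhum replicate 2 and 7 without Aromhum replicate 3.

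Of 13 tested steroid receptors and coregulators, Pgr rose and the coactivator gene Ncoa3 fell (each 7.69%, against 6.13% and 7.82% of all tested genes; median -0.06), the latter not without WT replicate 1 (0.0548), WT replicate 2 (0.0602), WT replicate 3 (0.0797), Aromhum replicate 1 (0.0962) or Aromhum replicate 2 (0.0527), with a range of 0.00431 to 0.476 over all alternatives. Of 13 tested steroid enzymes, 4 rose and 1 fell (30.8% and 7.69%; median 0.15), and the 4 include the transgene. Sult1e1, which inactivates estrogens by sulfation, was at 7.16, 15.1 and 5.70 CPM in WT and 1.011, 0.878 and 0.447 CPM in Aromhum mice. All 3 WT mice were above all Aromhum mice (11.5-fold lower, log2 fold change -3.52, SE 0.45, adjusted p = 0.00598), and the gene passed whichever mouse was left out. Hsd17b7, an enzyme that can reduce estrone to estradiol and also acts in cholesterol synthesis, was at 9.42, 9.75 and 7.46 CPM in WT and 18.4, 14.1 and 18.1 CPM in Aromhum mice (log2 fold change 0.88, SE 0.19, adjusted p = 0.0225), and was not called without WT replicate 1 (0.0522), WT replicate 2 (0.0662), WT replicate 3 (0.0745) or Aromhum replicate 1 (0.0892), with a range of 0.00649 to 0.0892 over all alternatives. Hsd11b2, which inactivates glucocorticoids, was at 2.44, 0 and 3.07 CPM in WT and 49.4, 48.9 and 5.11 CPM in Aromhum mice (log2 fold change 4.19, SE 1.06, adjusted p = 0.0376), and was not called without WT replicate 1 (0.108), WT replicate 2 (0.115), WT replicate 3 (0.110), Aromhum replicate 1 (0.114) or Aromhum replicate 2 (0.0873), with a range of 0.000510 to 0.115 over all alternatives. The rising enzymes numbered 1 without WT replicate 1, 2 or 3 or Aromhum replicate 1, 2 without Aromhum replicate 2 and 5 without Aromhum replicate 3.

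Among 21 tested peptide hormones and their receptors, Erfe, Nppc, Ramp3, Oxtr and Ramp2 rose, and Agtr1a, Penk and Ace fell (23.8% and 14.3%, against 6.13% and 7.82% of all tested genes, median 0.43). The list includes the markers Nppc, Pnoc, Ren1, Erfe and Ramp3 and was chosen with earlier results of these data known. Its shares are thus a description and no independent evidence about such genes. The enkephalin precursor gene Penk missed the threshold without WT replicate 1 (0.0603), WT replicate 2 (0.0748), WT replicate 3 (0.0762) or Aromhum replicate 2 (0.0640), with a range of 4.81e-05 to 0.0762 over all alternatives. For the natriuretic peptide system the ligand gene Nppc rose, while its signaling receptor gene Npr2 was at 8.55, 11.4 and 13.6 CPM in WT and 11.2, 10.5 and 12.6 CPM in Aromhum mice and did not pass (adjusted p = 0.888). The clearance receptor gene Npr3 (adjusted p = 0.830) and Npr1 (0.0645) did not pass either, although Npr1 had an adjusted p of 0.0266 (range 0.0266 to 0.190 over all alternatives) without Aromhum replicate 3. For the adrenomedullin receptor, the accessory gene Ramp2 was at 72.9, 46.0 and 62.7 CPM in WT and 251, 136 and 138 CPM in Aromhum mice (log2 fold change 1.51, SE 0.30, adjusted p = 0.0198), which missed the threshold without WT replicate 2 (0.0727), WT replicate 3 (0.0772) or Aromhum replicate 1 (0.0534), with a range of 3.62e-05 to 0.261 over all alternatives. The ligand gene Adm was at 20.6, 28.2 and 25.0 CPM in WT and 85.9, 156 and 15.97 CPM in Aromhum mice, with Aromhum replicate 3 below the WT mice (log2 fold change 1.82, SE 0.69, adjusted p = 0.114); without that mouse the adjusted p was 0.000933 (range 0.000933 to 0.318 over all alternatives). The receptor gene Calcrl was at 4.19, 5.38 and 4.39 CPM in WT and 17.4, 11.2 and 7.03 CPM in Aromhum mice and did not pass (adjusted p = 0.0550), while without Aromhum replicate 3 the adjusted p was 0.00569 (range 0.00569 to 0.648 over all alternatives). Calcrl and Ramp2 are also expressed by endothelial cells, whose markers summed to less in Aromhum mice (160 to 283 CPM against 492 to 1030). The part of such cells in both genes was not tested.

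In the renin-angiotensin system, Ace, which makes angiotensin II, was at 122, 123 and 123 CPM in WT and 37.6, 30.2 and 75.8 CPM in Aromhum mice. The WT mice were nearly alike and above all Aromhum mice (log2 fold change -1.39, SE 0.30, adjusted p = 0.0229), although the call was lost without WT replicate 1 (0.0662), WT replicate 2 (0.0734), WT replicate 3 (0.0793), Aromhum replicate 1 (0.101) or Aromhum replicate 2 (0.0531), with a range of 0.000177 to 0.973 over all alternatives. Its receptor gene Agtr1a was at 10.6, 11.4 and 11.0 CPM in WT and 4.47, 4.53 and 6.58 CPM in Aromhum mice (log2 fold change -1.11, SE 0.20, adjusted p = 0.0160), and the call was lost without WT replicate 2 (0.0592), WT replicate 3 (0.0563), Aromhum replicate 1 (0.0730) or Aromhum replicate 2 (0.0575), with a range of 0.000925 to 0.0730 over all alternatives. The precursor gene Agt was at 20.6, 13.1 and 1.75 CPM in WT and 188, 149 and 19.8 CPM in Aromhum mice and did not pass (log2 fold change 3.20, SE 0.89, adjusted p = 0.0501), with an adjusted p of 0.00252 (range 0.000163 to 0.158 over all alternatives) without Aromhum replicate 3. Agt also passed with RLE size factors (0.0494), no filter (0.0465), DESeq2 (0.0280) and every barcode (0.0475). The oxytocin receptor gene Oxtr, with 7 UMIs in all WT cells, was at 0, 2.35 and 0 CPM in WT and 73.3, 80.9 and 16.48 CPM in Aromhum mice (log2 fold change 6.43, SE 1.06, adjusted p = 0.0122). Its call was lost without WT replicate 2 (0.0530), WT replicate 3 (0.0564) or Aromhum replicate 1 (0.0514), with a range of 0.000323 to 0.0564 over all alternatives. The list had 3 rising genes without WT replicate 2, WT replicate 3 or Aromhum replicate 1 and 9 without Aromhum replicate 3, and its falling genes ranged from 0 (without WT replicate 2, WT replicate 3 or Aromhum replicate 2) to 5 (without Aromhum replicate 3).

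**Figure D3:**
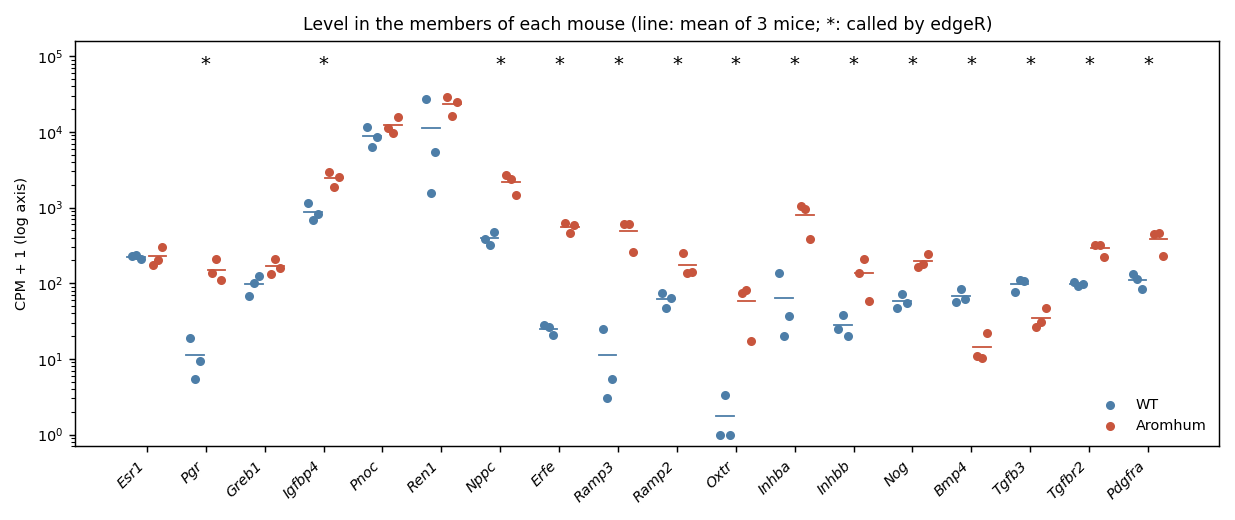
Levels of named genes in the Esr1hi HAFs of each mouse, as CPM + 1 on a log axis; dots from left to right are replicates 1 to 3, lines are group means, and an asterisk marks a gene past the threshold. Esr1 overlaps between genotypes (175 to 303 CPM in all), Pgr, Erfe and Ramp3 are higher in every Aromhum mouse, and Bmp4 and Tgfb3 are lower in every Aromhum mouse.

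Of the genes with the strongest rise, Gm16485, a gene model without an assigned function, had no UMI in the 3 WT mice and 1750 in the Aromhum mice, at 21.7, 33.2 and 18.3 CPM. This is at least 93.2-fold higher with 3 counts over the WT group as the floor (adjusted p = 0.00378). Gm16485 lies at chr9:8971791-8975773, plus strand, just past the end of Pgr (8968611) on the same strand. Whether part of its UMIs come from Pgr transcripts was not tested. Ngfr, a receptor of nerve growth factors, was at 0.175, 1.34 and 0.877 CPM in WT and 75.1, 49.4 and 13.5 CPM in Aromhum mice (log2 fold change 6.13, SE 0.96, adjusted p = 0.0110). It missed the threshold without WT replicate 2 (0.0511) or WT replicate 3 (0.0543), with a range of 7.70e-07 to 0.0543 over all alternatives. Ngfr is also a glial gene, and the 8 glial markers, of which it is 1, summed to 16.1 to 92.1 CPM in WT and 22.8 to 81.2 CPM in Aromhum mice. Without Ngfr the other 7 summed to 14.8 to 91.3 CPM in WT and 4.24 to 9.26 CPM in Aromhum mice. The part of glial cells in the rise of Ngfr was not tested. Aldh1a2, which makes retinoic acid, was at 1.05, 1.008 and 1.75 CPM in WT and 103, 110.2 and 8.24 CPM in Aromhum mice, so that Aromhum replicate 3 was far below the other Aromhum mice and still above the WT mice (log2 fold change 5.94, SE 1.19, adjusted p = 0.0198). Its call was lost without WT replicate 1 (0.0750), WT replicate 2 (0.0769), WT replicate 3 (0.0757) or Aromhum replicate 1 (0.0683), with a range of 3.79e-06 to 0.0769 over all alternatives. Scube1, Corin, Ptprn, Ccl8 and Hsd11b2 completed this group with Oxtr and S100g. Scube1 missed the threshold without WT replicate 2 (0.0549) or WT replicate 3 (0.0559), with a range of 8.31e-10 to 0.0559 over all alternatives. Corin missed it without WT replicate 1 (0.0629), WT replicate 2 (0.0733), WT replicate 3 (0.0725) or Aromhum replicate 1 (0.0632), with a range of 3.03e-05 to 0.0733 over all alternatives, and Ptprn without WT replicate 1 (0.0644), WT replicate 2 (0.0649), WT replicate 3 (0.0663) or Aromhum replicate 1 (0.0510), with a range of 2.64e-08 to 0.0663 over all alternatives. S100g, a vitamin D-dependent calcium-binding protein, had 1 UMI in all WT cells and 89.5, 194 and 3.897 CPM in Aromhum mice (adjusted p = 0.0253), and the call was lost without WT replicate 1 (0.0953), WT replicate 2 (0.115), WT replicate 3 (0.0931), Aromhum replicate 1 (0.0782) or Aromhum replicate 2 (0.0528), with a range of 3.56e-05 to 0.115 over all alternatives.

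Of the genes with the strongest fall, Ear2 and Ear1, eosinophil-associated ribonucleases, were seen mostly in WT mice. Ear2 was at 30.4, 30.6 and 35.1 CPM in WT and 0.117, 0.329 and 0.639 CPM in Aromhum mice (95.6-fold lower, log2 fold change -6.58, SE 0.36, adjusted p = 0.000500). Ear1 was at 28.6, 28.6 and 23.3 CPM in WT and 0.0777, 0.439 and 0.639 CPM in Aromhum mice (74.6-fold lower, log2 fold change -6.22, SE 0.42, adjusted p = 0.00129). The sequences of this family are nearly identical, so that reads could be split between its members, which leaves the value of each uncertain. Myoc, which encodes the secreted protein myocilin, was at 1446, 1728 and 1391 CPM in WT and 32.5, 33.3 and 126 CPM in Aromhum mice. It was 24.5-fold lower (log2 fold change -4.62, SE 0.54, adjusted p = 0.00488), with Aromhum replicate 3 nearest to WT. Lcn11, a lipocalin gene whose level here was 8.70 times that in the next column group, was at 38.6, 72.3 and 28.5 CPM in WT and 1.40, 2.23 and 2.94 CPM in Aromhum mice (21.8-fold lower, log2 fold change -4.45, SE 0.39, adjusted p = 0.00267). C7, a terminal complement component, was at 32.6, 35.6 and 52.2 CPM in WT and 1.79, 3.58 and 7.67 CPM in Aromhum mice (9.62-fold lower, log2 fold change -3.27, SE 0.46, adjusted p = 0.00752). These 5 genes passed whichever mouse was left out. Wif1, Gm266, Comp, Spock2, Gpc3, Lgi1 and Npy also fell, with log2 fold changes from -5.06 to -3.27, and each of them missed the threshold without at least 1 of WT replicates 1 to 3 and Aromhum replicates 1 and 2, with adjusted p up to 0.128 (Npy, without Aromhum replicate 1) and, over all alternatives, up to 0.265 (Comp).

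Of 21 tested collagen chains, 5 rose (Col5a3, Col18a1, Col5a1, Col5a2 and Col1a2) and Col11a1 fell (23.8% and 4.76%, against 6.13% and 7.82% of all tested genes), with a median log2 fold change of 0.24. Col18a1 missed the threshold without WT replicate 3 (0.0606) or Aromhum replicate 1 (0.0587), with a range of 6.85e-06 to 0.0908 over all alternatives, and Col11a1 without WT replicate 2 (0.0724), WT replicate 3 (0.0911) or Aromhum replicate 1 (0.113), with a range of 0.000216 to 0.113 over all alternatives. All 3 chains of type V collagen, which sets the diameter of collagen fibrils, are among those that rose. Col5a3 was at 47.8, 64.2 and 52.6 CPM in WT and 189, 128 and 150.4 CPM in Aromhum mice (2.82-fold higher, log2 fold change 1.498, SE 0.19, adjusted p = 0.00546), and passed whichever mouse was left out. Col5a1 was at 197, 283 and 289.5 CPM in WT and 437, 408 and 507 CPM in Aromhum mice (log2 fold change 0.80, SE 0.16, adjusted p = 0.0204), and its call was lost without WT replicate 2 (0.0614), WT replicate 3 (0.0574) or Aromhum replicate 1 (0.0798), with a range of 0.000208 to 0.181 over all alternatives. Col5a2 was at 416, 646 and 566 CPM in WT and 956, 930.3 and 857 CPM in Aromhum mice (log2 fold change 0.74, SE 0.17, adjusted p = 0.0287), and its call was lost without WT replicate 1 (0.0551), WT replicate 2 (0.0552), WT replicate 3 (0.0888), Aromhum replicate 1 (0.108) or Aromhum replicate 2 (0.0842), with a range of 0.000940 to 0.668 over all alternatives. The Aromhum mice were above the WT mice in all 3. Of type I collagen, the main fibrillar collagen, Col1a2 rose (log2 fold change 0.63, SE 0.15, adjusted p = 0.0301) but not without WT replicate 1 (0.0722), WT replicate 2 (0.0631), WT replicate 3 (0.113), Aromhum replicate 1 (0.0960) or Aromhum replicate 2 (0.0672), with a range of 9.46e-06 to 0.552 over all alternatives, and Col1a1, at 2679, 4229.8 and 3865 CPM in WT and 4662, 3994 and 4916 CPM in Aromhum mice, overlapped between genotypes (log2 fold change 0.32, SE 0.19, adjusted p = 0.279). Without subgroup 1 only 1 chain, Col18a1, rose and none fell. Col5a3 then had a log2 fold change of 0.60 (adjusted p = 0.0637, range 4.32e-10 to 0.0637 over all alternatives). Col5a1 (log2 fold change 0.40, adjusted p = 0.181), Col5a2 (log2 fold change 0.12, adjusted p = 0.668) and Col1a2 (log2 fold change 0.15, adjusted p = 0.552) missed the threshold there too. Col5a3 is itself a leading gene of subgroup 1, and all but 4 cells of subgroup 1 are from Aromhum mice, so these values are a description and do not place the rise in subgroup 1. The number of rising chains was 3 without WT replicate 1, 2 without WT replicate 2, 1 without WT replicate 3 or Aromhum replicate 1, 3 without Aromhum replicate 2 and 7 without Aromhum replicate 3.

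Among 20 genes of collagen processing and crosslinking, P4ha3, Bmp1, Tgm2 and Plod2 rose and Loxl3 and Pcolce fell (20.0% and 10.0%, against 6.13% and 7.82% of all tested genes; median 0.23). P4ha3, a prolyl hydroxylase subunit, was at 13.8, 13.1 and 11.4 CPM in WT and 88.0, 88.0 and 49.3 CPM in Aromhum mice (5.78-fold higher, log2 fold change 2.53, SE 0.28, adjusted p = 0.00385). Bmp1, the protease that removes the C-terminal propeptide of procollagen, was at 84.5, 91.1 and 92.1 CPM in WT and 249, 223 and 173 CPM in Aromhum mice (2.40-fold higher, log2 fold change 1.26, SE 0.17, adjusted p = 0.00741). Tgm2, a transglutaminase that crosslinks matrix proteins, was at 23.2, 16.1 and 26.8 CPM in WT and 89.1, 78.4 and 54.8 CPM in Aromhum mice (3.35-fold higher, log2 fold change 1.74, SE 0.26, adjusted p = 0.00937). These 3 enzymes separated the genotypes and passed whichever mouse was left out. Under the limits of the study, Bmp1 had an adjusted p of 0.0507 (range 1.43e-08 to 0.0507 over all alternatives) and Tgm2 of 0.453 (range 6.08e-08 to 0.453 over all alternatives). Plod2 kept its call in none of the fits without WT replicate 1, 2 or 3 or Aromhum replicate 1 or 2 (adjusted p = 0.0543 to 0.122, range 0.000971 to 0.140 over all alternatives). Loxl3 missed the threshold without WT replicate 2 (0.0727), WT replicate 3 (0.0735), Aromhum replicate 1 (0.0840) or Aromhum replicate 2 (0.0651), with a range of 0.000131 to 0.216 over all alternatives, and Pcolce without WT replicate 1 (0.0704), WT replicate 2 (0.105), WT replicate 3 (0.0910), Aromhum replicate 1 (0.110) or Aromhum replicate 2 (0.0920), with a range of 0.00168 to 0.229 over all alternatives. The falling genes of this list were 1 without WT replicate 1 and 0 without WT replicate 2, WT replicate 3, Aromhum replicate 1 or Aromhum replicate 2.

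Matricellular and elastic fiber genes moved both ways, with 8 of 28 rising and 6 falling (28.6% and 21.4%, against 6.13% and 7.82% of all tested genes; median 0.45). Spon1, a secreted adhesion protein, was at 64.0, 24.9 and 58.8 CPM in WT and 447, 411 and 242 CPM in Aromhum mice (7.34-fold higher, log2 fold change 2.87, SE 0.40, adjusted p = 0.00741). Fbln1, a fibulin of the basement membrane and elastic fibers, was at 800.1, 787 and 714 CPM in WT and 204, 198 and 107 CPM in Aromhum mice (4.54-fold lower, log2 fold change -2.18, SE 0.26, adjusted p = 0.00502). Both separated the genotypes and passed whichever mouse was left out. Cthrc1, a secreted protein of activated fibroblasts, was at 9.42, 18.8 and 4.39 CPM in WT and 125, 96.7 and 47.1 CPM in Aromhum mice (log2 fold change 3.03, SE 0.50, adjusted p = 0.0129), and missed the threshold without WT replicate 3 (0.0543) or Aromhum replicate 1 (0.0534), with a range of 1.21e-08 to 0.0543 over all alternatives. Ctgf, a CCN family gene often induced by TGF-beta, was at 1250.2, 1598 and 2002 CPM in WT and 587, 575 and 880.0 CPM in Aromhum mice, lower in every Aromhum mouse (log2 fold change -1.27, SE 0.22, adjusted p = 0.0136). It missed the threshold without WT replicate 2 (0.0529), WT replicate 3 (0.0563) or Aromhum replicate 1 (0.0671), with a range of 1.73e-06 to 0.235 over all alternatives. The rising genes of the list numbered 4, 3 and 1 without WT replicates 1, 2 and 3 and 1, 2 and 9 without Aromhum replicates 1, 2 and 3, and the falling genes 4, 1 and 1 and 1, 3 and 7.

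Of 22 tested matrix proteases and inhibitors, 8 rose and 2 fell (36.4% and 9.09%, against 6.13% and 7.82% of all tested genes; median 0.36). Htra1, a secreted serine protease, was at 441, 423 and 369 CPM in WT and 1296, 1037 and 1065 CPM in Aromhum mice (2.73-fold higher, log2 fold change 1.45, SE 0.16, adjusted p = 0.00400). Mmp19, a metalloproteinase, was at 194, 209 and 196 CPM in WT and 408, 452 and 425 CPM in Aromhum mice (2.12-fold higher, log2 fold change 1.09, SE 0.12, adjusted p = 0.00360). Both passed whichever mouse was left out, and the values within a genotype lay close together, but under the limits of the study Htra1 had an adjusted p of 0.143 (range 1.48e-15 to 0.143 over all alternatives). The inhibitor gene Timp4 fell while Timp1 rose: Timp4 was at 7.33, 12.4 and 10.5 CPM in WT and 0.933, 0.256 and 1.47 CPM in Aromhum mice (log2 fold change -3.57, SE 0.52, adjusted p = 0.00900), and missed the threshold without Aromhum replicate 1 (0.0504), with a range of 3.12e-09 to 0.0504 over all alternatives. Without subgroup 1 the rising genes of this list were 5. Adamts5, an aggrecanase, was at 107, 179.8 and 129.9 CPM in WT and 54.9, 59.9 and 71.9 CPM in Aromhum mice (log2 fold change -1.17, SE 0.19, adjusted p = 0.0114), and missed it without Aromhum replicate 1 (0.0604), with a range of 1.72e-06 to 0.239 over all alternatives. The rising genes numbered 8, 2 and 4 without WT replicates 1, 2 and 3 and 3, 5 and 9 without Aromhum replicates 1, 2 and 3.

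In TGF-beta, BMP and activin signaling, 5 of 38 tested genes rose and 7 fell (13.2% and 18.4%, against 6.13% and 7.82% of all tested genes; median -0.13). Among the ligands, Bmp4 was at 55.8, 83.4 and 61.4 CPM in WT and 10.1, 9.18 and 20.9 CPM in Aromhum mice (5.13-fold lower, log2 fold change -2.36, SE 0.30, adjusted p = 0.00631). Tgfb3 was at 74.7, 108 and 106 CPM in WT and 25.3, 29.4 and 46.4 CPM in Aromhum mice (2.89-fold lower, log2 fold change -1.53, SE 0.23, adjusted p = 0.00929). Both fell in every Aromhum mouse, while Tgfb1 and Tgfb2 did not pass (adjusted p = 0.0572 and 0.281). Under the limits of the study Bmp4 had an adjusted p of 0.184 (range 4.09e-11 to 0.184 over all alternatives) and Tgfb3 of 0.152 (range 1.25e-07 to 0.152 over all alternatives). The adjusted p of Tgfb1 was 0.0173 (range 0.0173 to 0.391 over all alternatives) with DESeq2, and that of Tgfb2 was 0.0299 (range 0.0299 to 0.629 over all alternatives) without Aromhum replicate 3. The activin subunit gene Inhba was at 133, 18.8 and 35.5 CPM in WT and 1051, 958 and 383 CPM in Aromhum mice (log2 fold change 3.61, SE 0.74, adjusted p = 0.0210), and Inhbb at 24.1, 37.0 and 19.3 CPM in WT and 135, 208 and 56.3 CPM in Aromhum mice (log2 fold change 2.31, SE 0.47, adjusted p = 0.0206). Both calls depended on single mice: Inhba missed the threshold without WT replicate 2 (0.0631), WT replicate 3 (0.0867), Aromhum replicate 1 (0.0782) or Aromhum replicate 2 (0.0529), with a range of 0.00118 to 0.291 over all alternatives, and Inhbb without WT replicate 1 (0.0722), WT replicate 2 (0.0631), WT replicate 3 (0.0845) or Aromhum replicate 1 (0.0756), with a range of 5.13e-06 to 0.0845 over all alternatives.

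Among the receptors, Tgfbr2, the receptor subunit that binds TGF-beta, was at 103, 91.1 and 95.6 CPM in WT and 319.7, 318 and 224 CPM in Aromhum mice (2.95-fold higher, log2 fold change 1.56, SE 0.19, adjusted p = 0.00502), while its partner Tgfbr1 did not pass (adjusted p = 0.142). The activin and BMP receptor genes Acvr1, Acvr2a, Acvr2b, Bmpr1a and Bmpr2 did not pass (adjusted p = 0.527, 0.147, 0.892, 0.353 and 0.236). Of the inhibitors, the BMP antagonist gene Nog was at 46.6, 70.9 and 54.0 CPM in WT and 165, 180.5 and 239 CPM in Aromhum mice (3.37-fold higher, log2 fold change 1.75, SE 0.18, adjusted p = 0.00360). The pseudoreceptor gene Bambi, which damps TGF-beta and BMP signals, was at 65.1, 75.3 and 64.9 CPM in WT and 12.6, 13.3 and 22.3 CPM in Aromhum mice (4.36-fold lower, log2 fold change -2.12, SE 0.21, adjusted p = 0.00311). Tgfbr2, Nog, Bambi, Bmp4 and Tgfb3 passed whichever mouse was left out. Another BMP antagonist gene, Grem1, had no UMI in WT and 249 in Aromhum cells, at least 13.3-fold higher (adjusted p = 0.0248), and missed the threshold without WT replicate 1 (0.0670), WT replicate 2 (0.0672), WT replicate 3 (0.0661), Aromhum replicate 1 (0.0568) or Aromhum replicate 2 (0.0504), with a range of 0.000152 to 0.0672 over all alternatives. The activin binder gene Fstl3 fell (log2 fold change -1.12, SE 0.21, adjusted p = 0.0166) but not without WT replicate 2 (0.0614), WT replicate 3 (0.0700), Aromhum replicate 1 (0.0740) or Aromhum replicate 2 (0.0561), with a range of 0.000133 to 0.504 over all alternatives, and Fst did not pass (adjusted p = 0.982) but fell without subgroup 1 (log2 fold change -1.22, adjusted p = 0.0136, range 0.0136 to 0.999 over all alternatives). The rising genes of the list numbered 4, 2 and 2 without WT replicates 1, 2 and 3 and 2, 3 and 8 without Aromhum replicates 1, 2 and 3, and the falling genes 7, 6 and 4 and 3, 5 and 9.

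In Wnt signaling 1 of 29 tested genes rose, the ligand gene Wnt4, and 10 fell (3.45% and 34.5%, against 6.13% and 7.82% of all tested genes; median -0.36). Rspo3, a secreted amplifier of Wnt signals, was at 5.93, 6.39 and 4.83 CPM in WT and 0.194, 0.731 and 0.703 CPM in Aromhum mice (10.8-fold lower, log2 fold change -3.44, SE 0.45, adjusted p = 0.00652). Nkd2, an intracellular inhibitor, was at 15.0, 19.2 and 22.4 CPM in WT and 2.76, 2.16 and 3.83 CPM in Aromhum mice (6.53-fold lower, log2 fold change -2.71, SE 0.25, adjusted p = 0.00294). Dkk3, a secreted protein of the Dickkopf family, was at 78.0, 141 and 114 CPM in WT and 34.1, 45.01 and 35.2 CPM in Aromhum mice (2.92-fold lower, log2 fold change -1.55, SE 0.22, adjusted p = 0.00752). These 3 genes passed whichever mouse was left out, but under the limits of the study Dkk3 had an adjusted p of 0.0687 (range 1.86e-08 to 0.0687 over all alternatives). The receptor genes Fzd4, Fzd7, Lrp5 and Lrp6 also fell, and each missed the threshold without at least 1 of WT replicates 1 to 3 and Aromhum replicates 1 and 2, with adjusted p up to 0.130 (Lrp6, without Aromhum replicate 1) and, over all alternatives, up to 0.920 (Lrp6). Wif1, a secreted inhibitor, was at 4.89, 38.0 and 21.5 CPM in WT and 0.622, 0.402 and 0.894 CPM in Aromhum mice (log2 fold change -5.06, SE 0.72, adjusted p = 0.00778), and missed the threshold without Aromhum replicate 1 (0.0508), with a range of 1.60e-13 to 0.0508 over all alternatives. The falling genes numbered 7, 4 and 6 without WT replicates 1, 2 and 3 and 3, 6 and 11 without Aromhum replicates 1, 2 and 3, and Wnt4 missed the threshold without Aromhum replicate 1 (adjusted p = 0.0514, range 1.67e-07 to 0.165 over all alternatives). Rspo2 is not analysed here.

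Most tendon genes fell: 13 of 19 fell and none rose (68.4%, against 7.82% of all tested genes), with a median log2 fold change of -1.55 against -0.01 over all tested genes. Fmod, a collagen-binding proteoglycan, was at 388, 733 and 585 CPM in WT and 55.05, 77.4 and 68.9 CPM in Aromhum mice (8.53-fold lower, log2 fold change -3.09, SE 0.24, adjusted p = 0.00212). Scx, the transcription factor that marks tendon progenitors, was at 10.8, 14.1 and 17.5 CPM in WT and 2.80, 1.90 and 3.45 CPM in Aromhum mice (5.22-fold lower, log2 fold change -2.38, SE 0.28, adjusted p = 0.00484). Both passed whichever mouse was left out. Gas1, a membrane protein that binds hedgehog ligands, was at 1632, 2250.5 and 1515 CPM in WT and 176, 142 and 484 CPM in Aromhum mice (log2 fold change -2.79, SE 0.44, adjusted p = 0.0112), and missed the threshold without Aromhum replicate 1 (0.0583), with a range of 3.57e-10 to 0.0583 over all alternatives. The falling genes numbered 9, 5 and 5 without WT replicates 1, 2 and 3 and 2, 9 and 14 without Aromhum replicates 1, 2 and 3. The 7 tenocyte markers, most of which are also in this list, summed to 1571 to 3585 CPM in WT and 615 to 1095 CPM in Aromhum mice, against 13087 CPM in column group 3, where they were highest. None was at 0, and the part of stray tenocytes or of free tenocyte RNA in this fall was not tested.

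Of 22 genes of fibro-adipogenic progenitors (the resident fibroblast progenitors of muscle), 10 fell and 2 rose (45.5% and 9.09%, against 7.82% and 6.13% of all tested genes; median -0.47). Dpp4, a surface peptidase of universal fibroblast progenitors, was at 31.2, 42.7 and 35.1 CPM in WT and 13.1, 13.4 and 12.3 CPM in Aromhum mice (2.82-fold lower, log2 fold change -1.496, SE 0.15, adjusted p = 0.00311). Cd34, a surface marker of the same cells, moved the other way, at 272, 328 and 262 CPM in WT and 612, 515 and 642 CPM in Aromhum mice (2.03-fold higher, log2 fold change 1.02, SE 0.14, adjusted p = 0.00741). Both passed whichever mouse was left out, as did Myoc and Fbln1, and the other rising gene was Pdgfra. The falling genes numbered 8, 5 and 5 without WT replicates 1, 2 and 3 and 5, 5 and 12 without Aromhum replicates 1, 2 and 3, and the rising genes 2, 1 and 1 and 1, 2 and 4.

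Of 29 immediate early and stress genes, 18 fell in Aromhum Esr1hi HAFs and none rose (62.1%, against 7.82% of all tested genes; median -0.70). Fos, a subunit of AP-1, was at 4178, 4826 and 5761 CPM in WT and 919, 1026 and 1839 CPM in Aromhum mice (3.98-fold lower, log2 fold change -1.99, SE 0.26, adjusted p = 0.00660). Ier3, an early response gene that affects cell survival, was at 3249, 2976 and 4196 CPM in WT and 1564, 1398 and 1405 CPM in Aromhum mice (2.41-fold lower, log2 fold change -1.27, SE 0.18, adjusted p = 0.00741). Both passed whichever mouse was left out. Egr1 was at 2164, 2328 and 2662 CPM in WT and 802, 947 and 1375 CPM in Aromhum mice (log2 fold change -1.22, SE 0.20, adjusted p = 0.0116) and missed the threshold without WT replicate 3 (0.0563) or Aromhum replicate 1 (0.0521), with a range of 2.27e-07 to 0.0761 over all alternatives, and Zfp36, which destabilizes cytokine mRNAs, was at 1268, 942 and 1920.2 CPM in WT and 273, 252 and 503 CPM in Aromhum mice (log2 fold change -2.04, SE 0.33, adjusted p = 0.0118) and missed it without Aromhum replicate 1 (0.0632), with a range of 3.33e-08 to 0.109 over all alternatives. The falling genes numbered 8, 9 and 3 without WT replicates 1, 2 and 3 and 2, 7 and 20 without Aromhum replicates 1, 2 and 3. Without subgroup 1, 11 fell. Median depth (10371 to 12310 against 14504 to 19925 UMIs) and median mitochondrial share (3.87 to 5.08% against 3.35 to 3.79%) also separated the genotypes, and their part in these genes was not tested.

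Of 31 tested complement, chemokine and acute-phase genes, 5 rose and 2 fell (16.1% and 6.45%, against 6.13% and 7.82% of all tested genes; median 0.50). Cd55, which protects cells from complement, was at 35.9, 29.9 and 29.4 CPM in WT and 137, 114 and 79.3 CPM in Aromhum mice (3.42-fold higher, log2 fold change 1.77, SE 0.24, adjusted p = 0.00710), and passed whichever mouse was left out, but under the limits of the study its adjusted p was 0.0537 (range 1.85e-09 to 0.0537 over all alternatives). C7 fell, as given above. Ccl8, a chemokine for monocytes, was at 8.20, 4.03 and 4.83 CPM in WT and 127, 198 and 33.1 CPM in Aromhum mice (19.7-fold higher, log2 fold change 4.30, SE 0.70, adjusted p = 0.0118), and missed the threshold without WT replicate 2 (0.0593), WT replicate 3 (0.0576) or Aromhum replicate 1 (0.0514), with a range of 1.73e-06 to 0.0593 over all alternatives. Ccl11, the eosinophil chemokine eotaxin, was at 39.8, 58.1 and 64.5 CPM in WT and 259, 210.0 and 102 CPM in Aromhum mice (log2 fold change 1.83, SE 0.36, adjusted p = 0.0184), and missed it without WT replicate 1 (0.0624), WT replicate 2 (0.0707), WT replicate 3 (0.0655), Aromhum replicate 1 (0.0712) or Aromhum replicate 2 (0.0527), with a range of 1.12e-05 to 0.0793 over all alternatives. Il1rl1, the receptor for interleukin 33, was at 12.6, 0.336 and 4.39 CPM in WT and 124, 123 and 12.4 CPM in Aromhum mice with overlap (log2 fold change 3.68, SE 1.013, adjusted p = 0.0485), and missed it without WT replicate 1 (0.0733), WT replicate 2 (0.125), WT replicate 3 (0.152), Aromhum replicate 1 (0.144) or Aromhum replicate 2 (0.111), with a range of 0.00238 to 0.152 over all alternatives, while its ligand gene Il33 did not pass (adjusted p = 0.675). The rising genes numbered 3, 1 and 1 without WT replicates 1, 2 and 3 and 1, 2 and 12 without Aromhum replicates 1, 2 and 3. The 8 macrophage markers summed to 20.8 to 57.4 CPM in Aromhum against 8.77 to 15.5 CPM in WT mice, and the 8 markers of Mmp3-high fibroblasts to 477 to 1471 against 454 to 558 CPM. Without subgroup 1, in which the latter markers summed to 2138 CPM, 2 genes of the list rose, and Ccl11 (log2 fold change 1.25, adjusted p = 0.0793) and Il1rl1 (log2 fold change 2.75, adjusted p = 0.139) missed the threshold with log2 fold changes still above 0. Ccl8, Ccl11, Il1rl1 and C4b are leading genes of subgroup 1, so this is a description only. The part of macrophages in these genes was not tested.

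**Figure D4:**
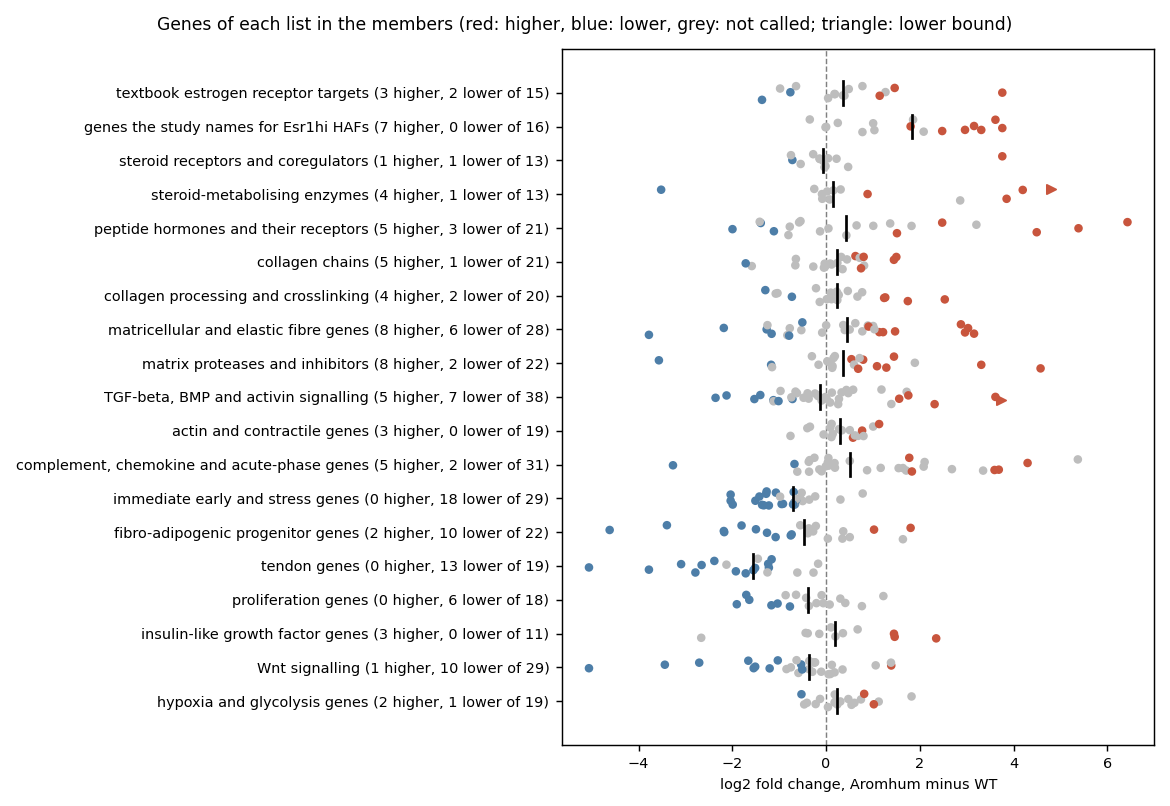
Log2 fold change, Aromhum over WT, of every tested gene in each gene list; red points rose, blue points fell, gray points did not pass, short lines are list medians, triangles are lower bounds for genes with no UMI in WT, and the dashed line is the median of all genes (-0.01). The tendon list (median -1.55) and the immediate early list (median -0.70) lie lowest.

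To see which of these differences were larger or smaller in Esr1hi HAFs than in similar cells of the same mice, the genotype effect was compared with that in the 3 column groups whose mean profile was most like that of column group 10. These were column groups 8 (15700 kept cells, Pearson's r 0.971 across genes), 3 (797 cells, 0.969) and 26 (1011 cells, 0.954). The r is across 16494 genes, which are not independent replicates, and is given as a description. The difference between the effects was tested in edgeR as an interaction, with the mouse as a term. Against column group 8 the effect was more positive for 154 genes (1.12%) and more negative for 279 (2.03%) of 13752. Against column group 3 the counts were 39 (0.392%) and 123 (1.24%) of 9951, and against column group 26, 42 (0.448%) and 107 (1.14%) of 9371. Column groups 3 and 26 have far fewer cells than column group 8. Column group 3 is the one in which the 7 tenocyte markers were highest (13087 CPM). The mix of cells within the 3 column groups was not examined, and its part in these differences was not tested. Within these column groups themselves, fewer genes passed the test between genotypes: 192 rose (1.44%) and 197 fell (1.48%) of 13324 in column group 8, 12 (0.165%) and 19 (0.261%) of 7293 in column group 3, and 2 rose (0.0308%) of 6496 in column group 26. Leaving out 1 mouse moved the counts to 31 to 453 and 54 to 719 against column group 8, 9 to 108 and 43 to 249 against 3, and 12 to 110 and 37 to 230 against 26, with the lowest counts without WT replicate 2 or Aromhum replicate 1 and the highest without Aromhum replicate 3.

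The effect was more positive than in all 3 column groups for 10 of the 9246 genes tested in each and more negative for 47. Of the 10, 9 also rose in Esr1hi HAFs themselves, namely Prex2, Kcne4, Gng12, Htra1, Gja1, Cstb, Nrp1, Bace2 and Ostf1, and the tenth was Dpep1. Of the 47, 43 also fell. Htra1 differed by 0.90 (SE 0.17, adjusted p = 0.0288), 0.80 (SE 0.14, adjusted p = 0.0148) and 1.45 (SE 0.21, adjusted p = 0.00401) log2 units from column groups 8, 3 and 26. Myoc differed by -3.14 (SE 0.19, adjusted p = 0.000943), -3.21 (SE 0.22, adjusted p = 7.99e-05) and -4.30 (SE 0.42, adjusted p = 0.000810), and Fmod by -2.32 (SE 0.38, adjusted p = 0.0179), -2.77 (SE 0.28, adjusted p = 0.00151) and -4.54 (SE 0.60, adjusted p = 0.00284). Fbln1, Bmp4, Bambi, Gas1, Fos, Col11a1, Adamts5, Dkk3, Ace and Spock2 were also among the 47. For the 47 genes the effect in Esr1hi HAFs was thus below that in each similar column group.

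Among the marker and target genes, Erfe rose more than in column group 8, by 2.94 (SE 0.30, adjusted p = 0.00424) log2 units, and its difference from column groups 3 and 26 did not pass (adjusted p = 0.925 and 0.502). Pgr and Nppc differed from none of the 3 by this test. For Pgr the differences were -1.52 (SE 1.27, adjusted p = 0.601), -1.02 (SE 1.37, adjusted p = 0.833) and -6.01 (SE 2.81, adjusted p = 0.428), and for Nppc -0.08 (SE 0.30, adjusted p = 0.950), -1.32 (SE 0.94, adjusted p = 0.628) and -0.14 (SE 0.90, adjusted p = 0.984). The rise of these genes is thus not shown to be particular to Esr1hi HAFs. None of the 8 markers, Ramp3 included, was among the genes that differed from all 3 column groups. Of the 16 genes that the study names, 2, 1 and 2 had a more positive effect than in column groups 8, 3 and 26. For 0 of the 16 was it more negative. These genes were chosen on the same samples, so this is a description.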

How the data were processed

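Single cells from the LAM of 3 WT and 3 Aromhum mice were processed with a 10x Genomics droplet kit. The deposited table holds raw counts, the UMIs per gene and barcode that the authors obtained with Cell Ranger 3.0.2 on mm10 with human CYP19A1 counted too; 16494 genes and 63647 barcodes were present. Values were not normalized before deposit, and no column was left unmapped.

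Kept cells of column group 10 were summed per mouse and compared in edgeR 4.0.16 (R 4.3.3) with TMM size factors, filterByExpr and the quasi-likelihood test. Benjamini-Hochberg adjustment ran over all tested genes with a threshold of 0.05. P-values measure the spread between mice. The interaction with genotype had the mouse as a term. Subgroups were found with scanpy 1.11.5 and leidenalg 0.10.2 (2000 variable genes, 30 components, 20 neighbors, resolution 0.5), and doublets were sought with Scrublet in scanpy, mouse by mouse. Gene coordinates are from GENCODE on GRCm38, and start regions from RefSeq on GRCm38.p6. Depths are given in the results.

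Named genes were the 8 markers, the 12 largest changes in each direction (at least 20 CPM in the higher genotype, no overlap between genotypes), up to 4 of the most significant called genes of each list, genes completing ligand and receptor or subunit sets, the genes the study names for these cells, and CYP19A1. The cells, markers and gene lists were chosen with earlier results of these data known. A few other list members (Rara, Plod2, Pcolce, Penk, Wnt4, Smoc2, Clec3b and frizzled and LRP genes) are named after their values were seen to complete a count.

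Alternatives were RLE size factors, no low-count filter, a replicate block, DESeq2 1.42.0, each mouse left out, every barcode, at most 5% mitochondrial UMIs, the limits of the study (without its removal of outliers by median absolute deviation, for which the methods name no measure), no doublets, and cells thinned to 1000 UMIs. Leaving out subgroup 1, or subgroups 7 to 10, was added after seeing the data. On simulated data built from these sums, edgeR recovered 57% of 2-fold and 97% of 4-fold changes, and 5.52% of calls were false. For the interaction the rates were 51%, 89% and 7.89%. The simulation gave every mouse the same mean profile apart from 200 changed genes, with the trended dispersion and no outlying mouse. In the interaction, the sums of a mouse were drawn independently. These rates are thus not those of the real data. The paper's test over single cells was not used, since the mouse is the replicate here.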

Additional observations from a re-analysis of the deposited data

Results flagged for a closer look

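The tests of the difference in genotype effect between Esr1hi HAFs and similar column groups called 433 genes against column group 8, 162 against column group 3 and 149 against column group 26 (edgeR's quasi-likelihood test of the interaction, adjusted over all genes of each fit). Of the genes described, 13 differed from all 3 column groups, and the following log2 differences are those from column group 8. The matrix and tendon genes had differences of -3.14 (Myoc), -2.32 (Fmod), -2.08 (Col11a1), -2.04 (Spock2), -1.95 (Fbln1), -1.62 (Gas1) and -1.59 (Adamts5). The signaling genes Dkk3, Bmp4 and Bambi had -1.71, -1.35 and -0.89. Ace had -1.59 and Fos -0.91, and Htra1 was the only one of the 13 with a positive difference, 0.90.

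The genotype effect in the similar column groups themselves took different directions. In column groups 8, 3 and 26, Bmp4 had log2 fold changes of -0.97, -0.98 and -0.68, and Fos -1.10, -1.03 and -0.91, the same direction as in Esr1hi HAFs with a smaller size. Dkk3 had 0.33, -0.14 and 0.42, Ace 0.09, 0.22 and 0.45, and Adamts5 0.47, 0.09 and 1.009, so that the fall of these genes in Esr1hi HAFs was set against values near 0 or above it.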

How the results depend on the processing

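Of the 93 described genes that changed, 54 could be tested under the limits of the study and 30 of these missed the threshold. Under these limits, 39 genes rose and 34 fell, with 320 cells and 3613 genes tested, and the mean shares were 1.25% and 1.77%. Thinned to 1000 UMIs, 162 rose and 209 fell of 5996, and the interaction counts (more positive, more negative) were 53 and 100 against column group 8, 5 and 39 against 3, and 10 and 29 against 26. With no filter they were 140 and 289 against column group 3 and 166 and 313 against 26. Without subgroup 1, 469 genes rose and 642 fell. The counts of rising and of falling genes kept within 1.5 times with RLE size factors, DESeq2, no filter, every barcode, at most 5% mitochondrial UMIs, no doublets and without subgroups 7 to 10. Leaving out 1 mouse gave 96 to 1237 rising and 125 to 1387 falling genes, and interaction counts of 31 to 453 and 54 to 719 (column group 8), 9 to 108 and 43 to 249 (3) and 12 to 110 and 37 to 230 (26). The causes were not tested beyond the fewer cells, genes or mice that these settings leave.

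With the replicate block, 1009 genes rose and 1228 fell. Deviations of same-numbered mice correlated at 0.26, -0.0026 and 0.176, not every one over 0.1, so the numbers are not shown to pair the mice. WT replicates 1 and 3 correlated best with their own number, and WT replicate 2 did not. Mfap4 had -0.00343 with the block. Chrdl2 passed with it (adjusted p = 0.0146, 0.0121 without WT replicate 1), and so did Agt, Calcrl, Greb1, Tgfb1, Cilp and Spon2, which also passed in other settings. Ptx3 and Aqp5 passed with it alone (adjusted p = 0.00871 and 0.0419, against up to 0.703 and 0.412 in the other settings).

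Among the genes chosen for description, log2 fold changes of 10 that had not passed, and of Ace, changed sign. Of the other called list members, Smoc2 (-0.73) and Clec3b (-0.75) had 0.59 and 0.48 under the limits of the study. Esr1 had 0.0239 with no filter, 0.12 with at most 5% mitochondrial UMIs, 0.39 under the limits of the study and 0.0724 thinned. Under these limits Moxd1 had 0.0212, Ace 0.0601, Il33 0.38 and Mfap4 -0.37. Thinned, Fst had 0.19, Bmpr1a 0.12 and Mfap4 -0.13. Fst had 0.0167 with no filter, 0.0116 with every barcode and 0.0011 without subgroups 7 to 10, where Mfap4 had -0.0236. Without subgroup 1, Esr1 had 0.13 and Col1a1 -0.17. Leaving out 1 mouse gave -0.25 to 0.12 for Esr1, -0.12 to 0.20 for Npr2, -0.44 to 0.31 for Npr3, -0.16 to 0.55 for Acvr2b, -0.38 to 0.34 for Fst, -0.68 to 0.0406 for Il33 and -0.0898 to 0.0729 for Mfap4. The WT sums, 2279445 to 5730192 UMIs, limit the precision for genes low in WT.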

Other observations

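Of 11 tested insulin-like growth factor genes, 3 rose in Esr1hi HAFs and none fell (27.3%, against 6.13% of all tested genes; median log2 fold change 0.20). Pappa, the protease that frees the growth factor from Igfbp4, was at 15.2, 5.04 and 12.7 CPM in WT and 62.7, 67.5 and 45.03 CPM in Aromhum mice (5.09-fold higher, log2 fold change 2.35, SE 0.35, adjusted p = 0.00945). It rose together with its substrate gene Igfbp4 and with Htra1, while the ligand gene Igf1 and the receptor gene Igf1r did not pass (adjusted p = 0.491 and 0.574). Pappa passed whichever mouse was left out, and the list kept 2 to 3 rising genes, 2 of them without WT replicate 2, WT replicate 3 or Aromhum replicate 1.

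Of 18 tested proliferation genes, 6 fell and none rose (33.3%, against 7.82% of all tested genes; median -0.40), and 9 genes of the list, among them Mki67 and Top2a, were too low to be tested. Hmgb2, a chromatin protein of dividing cells, was at 61.4, 63.9 and 64.9 CPM in WT and 26.6, 28.3 and 30.9 CPM in Aromhum mice (2.25-fold lower, log2 fold change -1.17, SE 0.10, adjusted p = 0.00267), and passed whichever mouse was left out. The fall includes the cell cycle inhibitor genes Cdkn1a (log2 fold change -1.04, SE 0.17, adjusted p = 0.0116) and Cdkn1c (log2 fold change -1.64, SE 0.30, adjusted p = 0.0161). Cdkn1a missed the threshold without WT replicate 2 (0.0510), with a range of 4.72e-07 to 0.112 over all alternatives, and Cdkn1c without Aromhum replicate 1 (0.0543) or Aromhum replicate 2 (0.0523), with a range of 6.35e-06 to 0.0847 over all alternatives. The falling genes were 2 without Aromhum replicate 1 or 2, and 4 to 6 otherwise (4 without WT replicate 2 or 3).

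Of 19 tested actin and contractile genes, Myh9, Flna and Tpm4 rose and none fell (15.8%, against 6.13%; median 0.30). Without WT replicate 1, WT replicate 2, Aromhum replicate 1 or Aromhum replicate 2 none passed, without WT replicate 3 there was 1, and without Aromhum replicate 3 there were 6. Without subgroup 1 there was 1, and the adjusted p of the 3 reached 0.416 (Tpm4) over all alternatives. Of 19 hypoxia and glycolysis genes, Egln3 and Gapdh rose and Pfkp fell (10.5% and 5.26%, near the 6.13% and 7.82% of all tested genes; median 0.24). Pfkp missed the threshold without WT replicate 1 (0.0531), WT replicate 2 (0.0870), WT replicate 3 (0.109), Aromhum replicate 1 (0.122) or Aromhum replicate 2 (0.118), with a range of 0.00723 to 0.408 over all alternatives. None of the list rose without WT replicate 2, WT replicate 3, Aromhum replicate 1 or Aromhum replicate 2, and 6 did without Aromhum replicate 3. The adjusted p of Egln3 and Gapdh reached 0.111 and 0.658 over all alternatives.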
